A study of Saccharomyces cerevisiae with 11 samples.

Results

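The 10 genes described here encode the yeast HSP90 proteins (HSP82 and HSC82), the disaggregases HSP104 and HSP78, the small heat-shock proteins HSP26, HSP42 and HSP12, the J-domain proteins YDJ1 and SIS1, and the aggregate-sorting factor BTN2. The rule that picked them used their systematic names only, but the members were chosen with earlier results of these data known. They are 10 of the 6668 coding sequences counted in every library. All cells were of the wild-type diploid strain BY4743 of Saccharomyces cerevisiae, and their replicative age was the variable. The 11 libraries were 6 of RNA-Seq, with 2 per age, and 5 of ribosome-protected fragments (footprints), of which 1 was from Aged cells and 2 from each of the younger ages. Cells of all groups came from cultures in synthetic defined medium at 25 °C that were begun with cells carrying biotin on their surface. Aged cells were bead-bound mothers kept for a further 24 h in the miniature chemostat aging device (MAD), in which a magnet holds the beads while medium flows through and carries daughters away. Middle cells were the biotin-carrying mothers that streptavidin beads and a magnet pulled from the batch culture after 13 h. Young cells were what the magnet left in the supernatant of that culture, which is mostly unlabelled daughters. Young cells thus carried no beads, so age and beads cannot be told apart in any comparison with them. Age and the MAD step cannot be told apart in any comparison of Aged cells. In such bulk samples, fewer cells of a type and less RNA per cell cannot be told apart either.

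HSP90 proteins bind client proteins, such as kinases and receptors, late in their folding and release them in a cycle driven by ATP. Disaggregases of the Hsp100 family pull polypeptides out of aggregates together with Hsp70, to which J-domain proteins hand the substrate. Small heat-shock proteins such as Hsp26 and Hsp42 hold unfolded proteins in assemblies that can be taken apart again. In budding yeast many of these genes are textbook targets of the heat-shock factor Hsf1, which binds heat-shock elements, and of the stress factors Msn2 and Msn4, which bind stress response elements, and Hsp104-bound aggregates are known to stay with the mother at division.

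The upstream sequences of the 10 genes carried the letters of these elements unequally. The heat-shock element was searched as GAANNTTCNNGAA on both strands (TTCNNGAANNTTC on the other) in the 600 bases before each start codon of the RefSeq R64 genome, a window that may reach into a neighbouring gene. Overlapping matches were counted separately, and the element was present before 5 of the 10 genes, against 1.7% of 6005 coding sequences. A match describes letters only, and its absence says nothing about binding of the factor. The sites are shown because these 5 genes, HSP104, HSP78, HSP42, SIS1 and BTN2, are set side by side with the other members in the comparison of Aged and Middle cells. Each is a 30-base window on the gene's own strand, with capitals over the stretch covered by its overlapping matches.
HSP104 (chrXII:88315-88344, plus strand, 302 bases before the start codon): atatttTTCCAGAATTTTCTAGAAgggtta
HSP78 (chrIV:974467-974496, minus strand, 247 bases before the start codon): gttattTTCCAGAATGTTCTAGAAgtgttc
HSP42 (chrIV:806372-806401, plus strand, 243 bases before the start codon): taaaagTTCTGGAAGGTTCGCGAAttgaga
SIS1 (chrXIV:619883-619912, minus strand, 344 bases before the start codon): tatGAACGTTCCAGAAACTTCTGGAAaaag
BTN2 (chrVII:772104-772133, plus strand, 344 bases before the start codon): ttttttTTCTAGAAAGTTCCGGAAaattgc
The run before SIS1 held 3 overlapping matches over 23 bases, and each of the other runs held 2 over 18 bases.

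The stress response element (AGGGG, or CCCCT on the other strand) was present before 8 of the 10 genes, against 39.7% of coding sequences, and at least 2 times before 6 of them, against 10.8%. HSP12 had 5 matches, the most among the members. HSP26 had 3 matches and no 3-unit heat-shock element. HSC82 was the only member with neither element in the window. One match each of HSP12 and HSP26 is shown, with the element in capitals.
HSP12 (chrVI:107054-107083, plus strand, 190 bases before the start codon): gttccggtcgtcCCCCTcttgatctgaaag
HSP26 (chrII:381692-381721, plus strand, 326 bases before the start codon): ggttattccctcCCCCTtatgcgtccaaaa

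HSP82 (YPL240C, chrXVI:96496-98625, minus strand) and HSC82 (YMR186W, chrXIII:632355-634472, plus strand) are near-identical copies, so their counts depend on how the reads were assigned. Their coding sequences were identical at 91.7% of 2133 aligned bases, with a longest identical run of 113 bases. Of all 28-base windows, the length of a typical footprint, 18.2% of those in HSP82 and 18.3% of those in HSC82 occurred elsewhere in the genome, against 0% in each of the other 8 members. No window of 150 bases was shared. The stretch of 30 bases with the most differences shows what tells reads of the pair apart, with the 9 differing bases in capitals.
HSP82 (chrXVI:97354-97383, minus strand, inside its only exon): gaAaaGttCtactcGgcTttcTcCaaAaaT
HSC82 (chrXIII:633585-633614, plus strand, inside its only exon): gaCaaAttTtactcTgcCttcGcTaaGaaC

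The other members also have a coding sequence of 1 exon. HSP104 (YLL026W) lies at chrXII:88623-91349 on the plus strand, HSP78 (YDR258C) at chrIV:971808-974243 on the minus strand, HSP26 (YBR072W) at chrII:382030-382674 on the plus strand and HSP42 (YDR171W) at chrIV:806621-807748 on the plus strand. HSP12 (YFL014W) lies at chrVI:107256-107585 on the plus strand, YDJ1 (YNL064C) at chrXIV:505868-507097 on the minus strand, SIS1 (YNL007C) at chrXIV:618507-619565 on the minus strand and BTN2 (YGR142W) at chrVII:772454-773686 on the plus strand.

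The libraries held 476704 to 2585717 counts of RNA-Seq and 168247 to 965156 counts of footprints, so that 3 counts, taken as the smallest detectable signal, equalled 1.16 to 6.29 and 3.11 to 17.8 CPM (counts per 1000000 counts). These floors cover counting error only, and each member lay above them in all 11 libraries. Levels below are CPM after scaling by the TMM method within each assay. The 10 genes made up 0.872% and 0.867% of all RNA-Seq counts in Aged, 2.57% and 1.45% in Middle and 1.65% and 1.01% in Young cells. Their share of footprints was 1.24% in Aged, 4.11% and 2.35% in Middle and 2.28% and 1.55% in Young cells. In both assays the share was higher in Middle replicate 1 than in any other library.

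The replicates of one age differed in these genes mostly to one side. In RNA-Seq, 9 of the 10 members were higher in replicate 1 than in replicate 2 of Young cells, against 47.9% of 4942 genes, and the median log2 difference of the members was 1.06, against -0.03 over all those genes. In Middle cells, 9 members were higher in replicate 1, against 53.9% of genes, with a median of 1.23 against 0.05. The Aged replicates were closer, with 7 members higher in replicate 1 and a median of 0.16 against 0. Footprints showed the same side, with 9 members higher in replicate 1 of Young cells (median 1.20, against 48.3% of genes and -0.02) and 9 in replicate 1 of Middle cells (median 0.88, against 47.5% and -0.02). BTN2 had the widest gap, at 3.30-fold in Young and 4.07-fold in Middle RNA and 4.95-fold in Middle footprints, whereas HSP12 went the other way in RNA at every age, at 0.551-fold, 0.874-fold and 0.844-fold in Young, Middle and Aged cells. Replicate 1 was the shallower RNA-Seq library at each age, and the part of depth in these gaps was not tested. Calls that changed without a single library are given in the comparisons below.

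**Figure D1:**
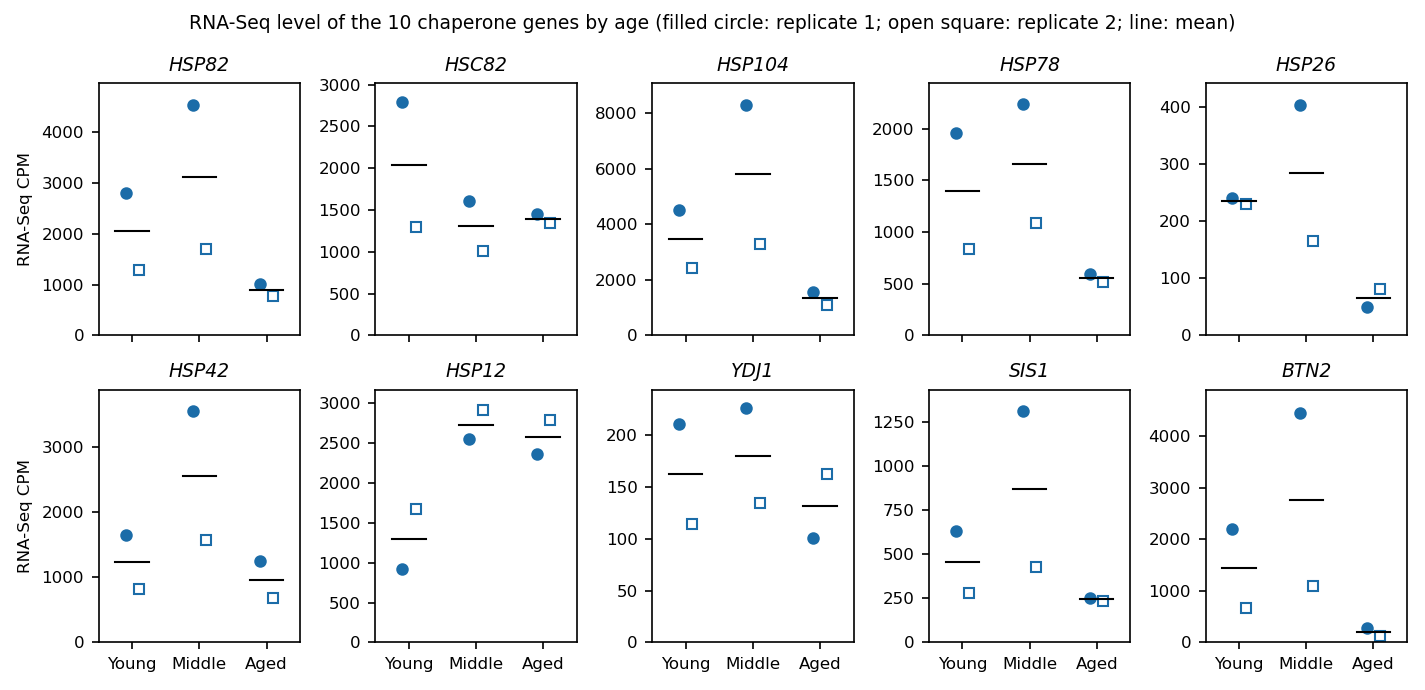
RNA-Seq level (CPM, linear axis from 0, own scale for each gene) of the 10 genes in Young, Middle and Aged cells. Filled circles are replicate 1, open squares replicate 2 and lines the mean of the 2 libraries. In HSP82, HSP104, HSP78, HSP26, SIS1 and BTN2 both Aged libraries lie below all 4 other libraries, and replicate 1 of Middle cells is above replicate 2 in 9 of the genes.

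Levels between genes were compared per kilobase of counted coding sequence. In Young cells HSP12 had the highest RNA level of the 10, at a mean of 4313 CPM per kilobase with both libraries (3064 and 5563) above every library of any other member. YDJ1, the general J-domain partner of Hsp70, had the lowest, at 135 CPM per kilobase (94.8 and 176), and lay below every other member. The 8 genes between them ran from HSP104 at 1285 through BTN2 at 1194, HSP42 at 1123, HSC82 at 978, HSP82 at 975, HSP78 at 582 and SIS1 at 444 to HSP26 at 382 CPM per kilobase, and the libraries of neighbours in that order overlapped. In Aged cells HSP12 was again first at 8584 CPM per kilobase (7859 and 9308), and HSP42 came next at 875, followed by HSC82 at 669. HSP26 (107 CPM per kilobase, libraries at 80.3 and 133) and YDJ1 (110, libraries at 83.9 and 136) were the lowest in Aged cells, and their libraries overlapped. BTN2, which followed HSP104 in Young cells, was at 168 CPM per kilobase in Aged cells (libraries at 108 and 229). Its mean was above those of YDJ1 and HSP26 only, and its libraries overlapped theirs.

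The Aged cells were first set against the Middle cells, the mothers from which the MAD culture was started. The 2 groups differ by further divisions and by the MAD step together. Of the 10 genes, 4 had lower RNA in Aged cells by edgeR's quasi-likelihood test (adjusted p under 0.05 over all genes) and none had higher RNA, against 7.75% of 5674 genes called in either direction and 3% called lower. The median log2 fold change of the members was -1.69, against 0.01 over all genes tested. The 4 genes were BTN2, HSP104, HSP26 and HSP78.

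BTN2, which gathers misfolded proteins into deposits and sorts membrane cargo, had the widest difference, with 275 and 129 CPM in the 2 Aged libraries and 4453 and 1094 CPM in the 2 Middle libraries. Both Aged libraries were far below both Middle libraries. The log2 fold change was -3.79 (SE 0.68, edgeR adjusted p = 0.011), which is 0.0722-fold.

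HSP104, the cytosolic disaggregase, had 1564 and 1111 CPM in Aged cells and 8299 and 3302 CPM in Middle cells. The groups did not overlap, though the Middle libraries themselves differed 2.51-fold. The log2 fold change was -2.12 (SE 0.5, edgeR adjusted p = 0.035).

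HSP26, whose oligomers come apart on heating to bind unfolded proteins, had 49.4 and 82.1 CPM in Aged cells and 403 and 166 CPM in Middle cells, again without overlap. Its Aged values rested on 26 and 130 counts. The log2 fold change of HSP26 was -2.02 (SE 0.44, edgeR adjusted p = 0.026). HSP78, the disaggregase of the mitochondrial matrix, had 597 and 514 CPM in Aged cells and 2241 and 1088 CPM in Middle cells, at -1.58 (SE 0.39, edgeR adjusted p = 0.042).

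HSP82, SIS1 and HSP42 lay near or above the threshold, and none of the 3 passed in the reported edgeR fit. HSP82, the heat-inducible HSP90, had 1005 and 777 CPM in Aged cells and 4534 and 1706 CPM in Middle cells (log2 fold change -1.81, SE 0.48, edgeR adjusted p = 0.053). SIS1, the essential J-domain protein that also acts in the control of Hsf1, had 251 and 237 CPM in Aged cells and 1309 and 427 CPM in Middle cells (-1.82, SE 0.47, edgeR adjusted p = 0.051). HSP42, the small heat-shock protein that gathers misfolded proteins into cytosolic deposits, had 1244 and 676 CPM in Aged cells and 3552 and 1571 CPM in Middle cells (-1.42, SE 0.47, edgeR adjusted p = 0.11). By DESeq2 all 3 passed, at adjusted p of 0.00087, 0.0022 and 0.019, where 7.44% of all genes were called. They also passed in edgeR with the replicate number as a block, at adjusted p of 2.3e-06, 8.2e-08 and 7.7e-05. That block called 25% of all genes and rests on numbers that are not known to link ages. HSP82 and SIS1 also passed in edgeR scaled by library totals (adjusted p = 0.026 and 0.03) and with no filter (adjusted p = 0.03 and 0.026). None of these 3 genes had overlapping groups. Thus in 7 of the 10 members both Aged libraries were below both Middle libraries, against 27.8% of genes. That share was taken over the 5897 genes tested in Aged over Young RNA.

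The remaining 3 members gave no call. HSC82, the constitutive HSP90, had 1451 and 1344 CPM in Aged cells and 1607 and 1010 CPM in Middle cells, so that its Aged values lay inside the Middle range (log2 fold change 0.10, SE 0.34). HSP12, a small membrane-associated stress protein, had 2358 and 2793 CPM in Aged cells and 2549 and 2916 CPM in Middle cells (-0.08, SE 0.33). YDJ1 had 101 and 163 CPM in Aged cells and 226 and 135 CPM in Middle cells (-0.39, SE 0.34), again with overlap. The 5 genes with a 3-unit heat-shock element had log2 fold changes from -3.79 to -1.42, and the 5 without one had HSP26 at -2.02, HSP82 at -1.81, YDJ1 at -0.39, HSP12 at -0.08 and HSC82 at 0.10.

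These calls depended on single libraries. Without Middle replicate 1, BTN2 alone passed (log2 fold change -2.47, edgeR adjusted p = 0.018), and HSP104, HSP78 and HSP26 were at -1.31, -0.98 and -1.30 with adjusted p from 0.12 to 0.21. Without Aged replicate 2 none passed, with BTN2 at -3.31 (adjusted p = 0.15), and the calls over all genes dropped to 144, against 440 with all libraries. HSP78 also missed the threshold without Aged replicate 1 (adjusted p = 0.056) and in a joint fit of the 3 ages (adjusted p = 0.085), and HSP104 without Middle replicate 2 (adjusted p = 0.051). Other calls were gained, with HSP42 without Aged replicate 1 (edgeR adjusted p = 0.048), and HSP82 and SIS1 without Middle replicate 2 (edgeR adjusted p = 0.048 and 0.03).

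**Figure D2:**
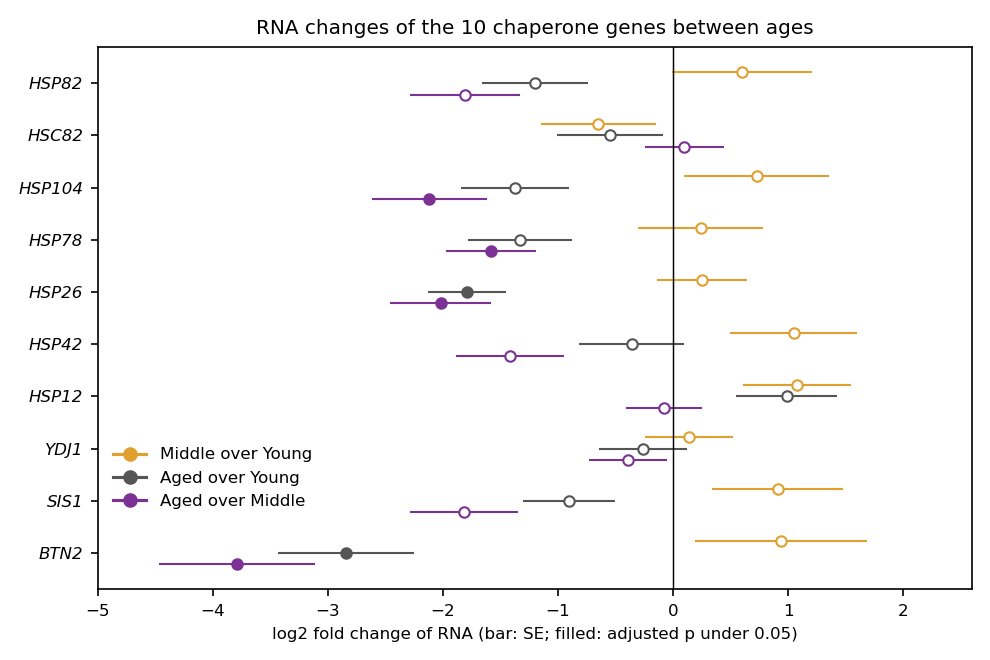
Log2 fold change of RNA (horizontal axis) of the 10 genes for Middle over Young, Aged over Young and Aged over Middle cells. Bars are the SE from edgeR and filled points have an adjusted p under 0.05. The 4 filled points of Aged over Middle lie between -3.79 (BTN2) and -1.58 (HSP78), and all Middle over Young points are open.

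Against Young cells, Aged cells had lower RNA of 2 members, HSP26 and BTN2, and higher RNA of none, while 13% of 5897 genes were called in either direction and 4.93% were called lower. The median log2 fold change of the members was -1.05, against -0.02 over all genes. This comparison and the one with Middle cells share the Aged libraries and are not independent.

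HSP26 had 49.4 and 82.1 CPM in Aged cells and 240 and 230 CPM in Young cells. The Young replicates of this gene were unusually close, and the groups were far apart. The log2 fold change was -1.79 (SE 0.34, edgeR adjusted p = 0.0077).

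BTN2 had 275 and 129 CPM in Aged cells and 2206 and 668 CPM in Young cells, at a log2 fold change of -2.84 (SE 0.59, edgeR adjusted p = 0.011). Without Young replicate 1 its log2 fold change was -1.76 (adjusted p = 0.088) and without Young replicate 2 it was -3.47 (adjusted p = 0.083), and HSP26 had an adjusted p of 0.099 without Young replicate 2. Leaving out that library removed every call over all genes (0, against 764 with all libraries), and leaving out Young replicate 1 left 321. At an unadjusted p under 0.05, 6 members were lower and 1 was higher, against 12.6% and 15.3% of all genes.

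Both disaggregases were lower in each Aged library than in each Young library without passing the test. HSP104 had 1564 and 1111 CPM in Aged cells and 4513 and 2418 CPM in Young cells (log2 fold change -1.37, SE 0.47, edgeR adjusted p = 0.082), and HSP78 had 597 and 514 CPM in Aged cells and 1963 and 839 CPM in Young cells (-1.33, SE 0.45, edgeR adjusted p = 0.076). HSP82 had 1005 and 777 CPM in Aged cells and 2799 and 1294 CPM in Young cells (-1.20, SE 0.46, edgeR adjusted p = 0.11). SIS1 had 251 and 237 CPM in Aged cells and 634 and 280 CPM in Young cells (-0.90, SE 0.4, edgeR adjusted p = 0.17). By DESeq2, HSP104, HSP78 and HSP82 passed as well, at adjusted p of 0.011, 0.025 and 0.046. In all, 6 members had both Aged libraries below both Young libraries, against 28.9% of genes, and 6 (HSP82, HSP104, HSP78, HSP26, SIS1 and BTN2) had them below all 4 Young and Middle libraries, against 15%.

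The other 4 members overlapped or stood on the other side. HSC82 (1451 and 1344 CPM in Aged cells, 2786 and 1298 CPM in Young cells) had a log2 fold change of -0.55 (SE 0.46), HSP42 (1244 and 676 CPM in Aged cells, 1648 and 818 CPM in Young cells) one of -0.36 (SE 0.46) and YDJ1 (101 and 163 CPM in Aged cells, 211 and 114 CPM in Young cells) one of -0.26 (SE 0.38). HSP12 was the single member with a positive value, with 2358 and 2793 CPM in Aged cells and 919 and 1669 CPM in Young cells (log2 fold change 0.99, SE 0.44, edgeR adjusted p = 0.17). Its Aged and Young libraries did not overlap, though the test was not passed. The share of all genes separated in that direction was not computed. The other members were below 0, and HSC82, HSP42 and YDJ1 turned above 0 with a single library left out.

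Middle cells were compared with Young cells, both taken from batch cultures. No member passed the test, against 2.97% of 5818 genes. Without Young replicate 2 there was again none, although the calls over all genes came to 756 (12.8%), against 173 with all libraries. At an unadjusted p under 0.05 there was 1 member, HSP12, on the higher side, against 12.4% of genes. By DESeq2 the count of members was also 0. Of the 10 fold changes, 9 were above 0, as were 48.7% of all genes, and their median was 0.67 on the log2 scale, against -0.02. The direction rested on Middle replicate 1, since without it 7 of these 9 were below 0 (HSP82, HSP104, HSP78, HSP26, YDJ1, SIS1 and BTN2).

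HSP12 had 2549 and 2916 CPM in Middle cells and 919 and 1669 CPM in Young cells, at a log2 fold change of 1.08 (SE 0.47, edgeR adjusted p = 0.20). It was the only member with both Middle libraries above both Young libraries, against 27.6% of genes. That share was taken over the 5897 genes tested in Aged over Young RNA. HSP42 had 3552 and 1571 CPM in Middle cells and 1648 and 818 CPM in Young cells (1.05, SE 0.55, edgeR adjusted p = 0.28). BTN2 had 4453 and 1094 CPM in Middle cells and 2206 and 668 CPM in Young cells (0.94, SE 0.75, edgeR adjusted p = 0.48). The SE of BTN2 was the widest of the members, and 1 library of each age stood far above the other. HSC82 was the single member on the lower side, with 1607 and 1010 CPM in Middle cells and 2786 and 1298 CPM in Young cells (-0.65, SE 0.50, edgeR adjusted p = 0.47). SIS1, HSP104, HSP82, HSP26, HSP78 and YDJ1 had log2 fold changes of 0.91, 0.73, 0.60, 0.25, 0.24 and 0.14, each with overlapping libraries.

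The 2 HSP90 genes were read against each other inside each library. HSP82 gave 40.9% (95% exact binomial interval 38.2 to 43.6) and 36.6% (35 to 38.3) of the summed HSP82 and HSC82 counts in the Aged RNA-Seq libraries, 73.8% (72.1 to 75.5) and 62.8% (61.3 to 64.3) in the Middle ones, and 50.1% (48.7 to 51.5) and 49.9% (48.8 to 51.1) in the Young ones. The intervals cover counting error only. The 2 Young libraries gave nearly the same share although their summed level differed, at 5585 and 2592 CPM. Middle cells thus had the heat-inducible copy in excess and Aged cells the constitutive copy, with no overlap between any ages. Footprints fell in the same order, with 42.1% (40.3 to 43.8) in Aged cells, 65.8% (63.1 to 68.4) and 58.3% (56.3 to 60.4) in Middle cells and 47.2% (45.5 to 49) and 47.9% (45.6 to 50.1) in Young cells. With 2 libraries against 2, a two-sided exact permutation test cannot go below p = 0.333, and over the 3 ages not below 0.0667, and no other test of the shares was run. The summed level of the pair had a log2 fold change of -0.84 (SE 0.5, edgeR adjusted p = 0.30) between Aged and Young RNA, and of 0.11 (edgeR adjusted p = 0.94) between Middle and Young RNA.

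**Figure D3:**
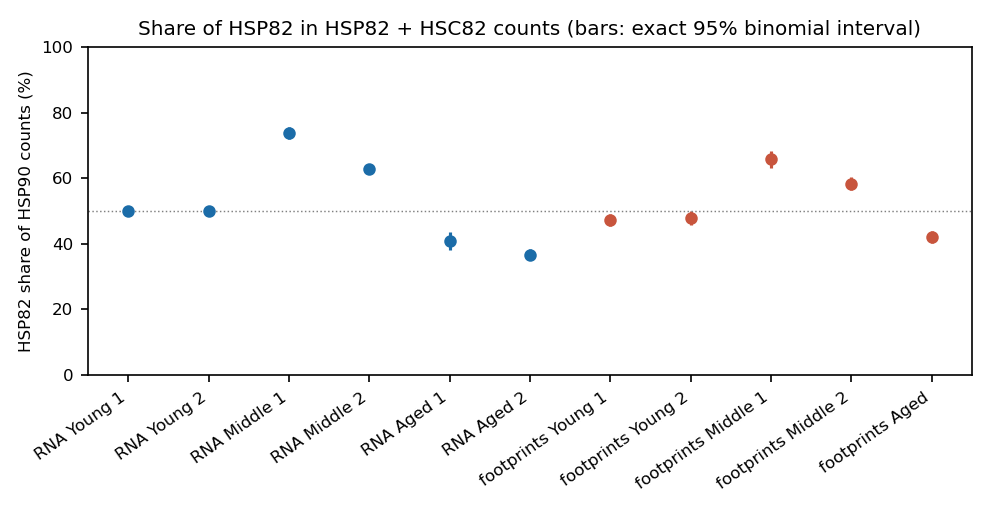
HSP82 as a percentage of the summed HSP82 and HSC82 counts (vertical axis, 0 to 100%) in each RNA-Seq library (blue) and footprint library (red). Bars are exact 95% binomial intervals and the dotted line marks equal counts. The Middle libraries lie between 58.3% and 73.8%, the Young ones near the line and the Aged ones between 36.6% and 42.1%.

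Footprints count ribosomes on a coding sequence and so follow the RNA level and the ribosomes on each RNA together. In the single Aged footprint library, 1 member passed the test against Young cells and was lower, in a joint fit of the 5 footprint libraries that takes the lone library to vary like the others. Over all 4635 genes, 8.85% were called in either direction and 4.06% were called lower. That member was HSP26, with 136 CPM in the Aged library, 1098 and 410 CPM in the Middle ones and 956 and 696 CPM in the Young ones. Its log2 fold change against Young cells was -2.60 (SE 0.72, edgeR adjusted p = 0.039), and without Middle replicate 2, which is in the fit but not in the contrast, the adjusted p was 0.055. With the replicate number as a block, an alternative chosen after seeing the data that takes the Aged library as number 1, as the study's captions do, 3 members were lower (HSP26, BTN2 and HSP78 with edgeR adjusted p of 0.00026, 4.8e-05 and 0.024), against 16.1% of genes called.

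BTN2 had 269 CPM in the Aged footprint library, 7943 and 1606 CPM in the Middle ones and 4085 and 1407 CPM in the Young ones. The Aged value was below each of the others, and the log2 fold change against Young cells was -3.35 (SE 1.09, edgeR adjusted p = 0.071). HSP78 had 415 CPM in the Aged library, 1295 and 962 CPM in the Middle ones and 1959 and 759 CPM in the Young ones (-1.71, SE 0.71, edgeR adjusted p = 0.15). HSP104 had 1938 CPM in the Aged library, 11273 and 4759 CPM in the Middle ones and 6070 and 3509 CPM in the Young ones (-1.30, SE 0.85, edgeR adjusted p = 0.37). The Aged library was the lowest of all 5 in 6 members (HSP82, HSP104, HSP78, HSP26, SIS1 and BTN2), against 18.6% of genes. That share was taken over the 5897 genes tested in Aged over Young RNA, more than the 4635 tested in footprints. Without Young replicate 2, BTN2 (edgeR adjusted p = 0.00022) and HSP78 (edgeR adjusted p = 0.007) also passed, in a fit that called 15.7% of 4518 genes. BTN2 also passed without Middle replicate 1 (edgeR adjusted p = 0.024), where 12% of 4666 genes were called.

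HSP12 footprints stood highest in Middle cells, with 7844 and 4900 CPM, against 1742 and 2800 CPM in Young cells, and its Aged library was at 4110 CPM. The log2 fold change of Middle over Young cells was 1.47 (SE 0.62, edgeR adjusted p = 0.17). No member was called in Middle footprints by edgeR, against 6.89% of 4167 genes, with 1 member, HSP12, higher at an unadjusted p under 0.05, against 11% of genes. Among the members, DESeq2 called HSP12 alone (adjusted p = 0.030). The footprint fold changes of the other members between Middle and Young cells ran from -0.54 (HSC82) to 0.81 (SIS1) on the log2 scale. HSP82, HSC82, HSP42, SIS1 and YDJ1 had 1406, 1937, 1849, 318 and 122 CPM in the Aged footprint library, with log2 fold changes of -1.07, -0.75, -0.08, -0.84 and -0.56 against Young cells, none of them called.

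**Figure D4:**
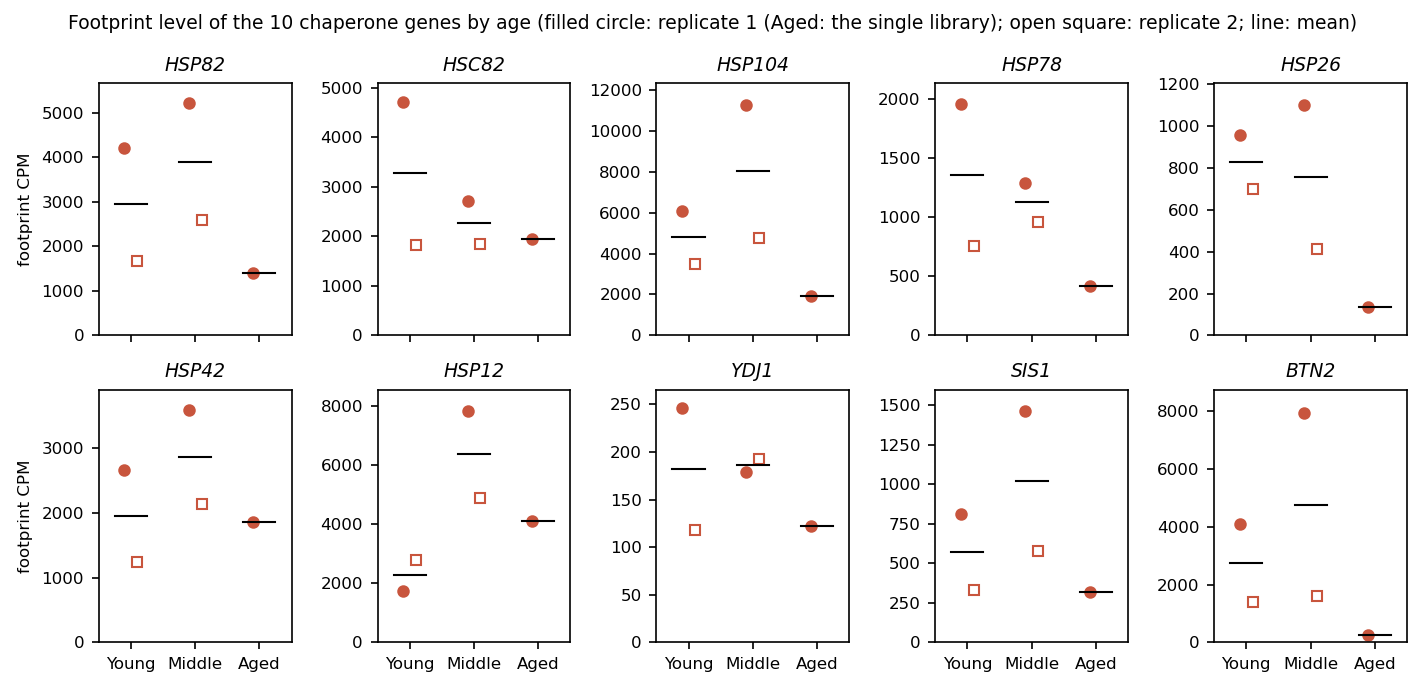
Footprint level (CPM, linear axis from 0, own scale for each gene) of the 10 genes in Young, Middle and Aged cells. Filled circles are replicate 1 (in Aged cells the only library), open squares replicate 2 and lines the mean. BTN2 is at 269 CPM in the Aged library, against 1407 CPM or more in each other library, and HSP12 stands above both Young libraries in each Middle and Aged library.

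Translational efficiency, the footprint level for a given RNA level, was tested as an age-by-assay interaction. No member and no other gene passed in edgeR at either age (0% called, adjusted p of 1 for each member). At an unadjusted p under 0.05, 89 genes were higher and 198 lower in Aged, and 64 higher and 105 lower in Middle cells, with no member among them, and DESeq2 called 22 and 19 genes, again with no member. With the lysate that RNA and footprints share as a block, 55 genes were called for Middle cells and no member. The log2 changes of the members ran from -0.76 (HSP26, SE 0.79) to 0.31 (HSP42, SE 0.89) at the Aged stage, and in Middle cells from -0.47 (HSP78, SE 0.81) to 0.44 (HSP12, SE 0.73). These standard errors come from a fit that takes RNA and footprints of one lysate as separate samples. With the lysate block the Middle values were -0.36 for HSP78 (edgeR adjusted p = 0.87) and 0.39 for HSP12 (edgeR adjusted p = 0.86). The same block for Aged cells, chosen after seeing the data and with the Aged footprints paired with RNA-Seq replicate 1, called 67 genes and no member, with HSP26 at -0.32 and HSP42 at -0.06.

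The ratio of footprint CPM to RNA CPM in single lysates had less spread than either level in each member over the 4 Young and Middle lysates, with the widest margin in BTN2 and SIS1 and the narrowest in YDJ1. The highest BTN2 ratio was 1.44 times the lowest, against 6.67 times for RNA and 5.64 times for footprints, whereas in YDJ1 the ratio spanned 1.81 times and RNA 1.99 times. The Aged ratio is given over the mean of both RNA-Seq libraries, as the title of the footprint library has no replicate number, and also over RNA-Seq replicate 1, the number that the study's captions give it (added after seeing the data). In HSP104 the ratio was 1.45 in Aged cells (1.24 over replicate 1), 1.36 and 1.44 in Middle and 1.34 and 1.45 in Young cells. BTN2 had ratios of 1.33 in Aged cells (0.978 over replicate 1), 1.78 and 1.47 in Middle and 1.85 and 2.11 in Young cells. The wide gaps between replicates of BTN2 were therefore present in both assays of the same lysate.

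HSP26 had a ratio of 2.07 in Aged cells, which was 2.76 over replicate 1 and then above both Middle ratios of 2.72 and 2.47. In Young cells its ratios of 3.99 and 3.03 were the highest among the members. HSP78 was the only member below 1 in every Young and Middle lysate and by both Aged ratios, at 0.747 (0.696 over replicate 1) in Aged cells, 0.578 and 0.884 in Middle and 0.998 and 0.905 in Young cells. HSP12 had 3.08 in Middle replicate 1 and 1.60 to 1.90 elsewhere. HSP82 had ratios of 1.58 in Aged cells (1.40 over replicate 1) and 1.15 to 1.52 in the other lysates. HSC82 had 1.39 in Aged cells (1.33 over replicate 1) and 1.41 to 1.83 in the others.

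**Figure D5:**
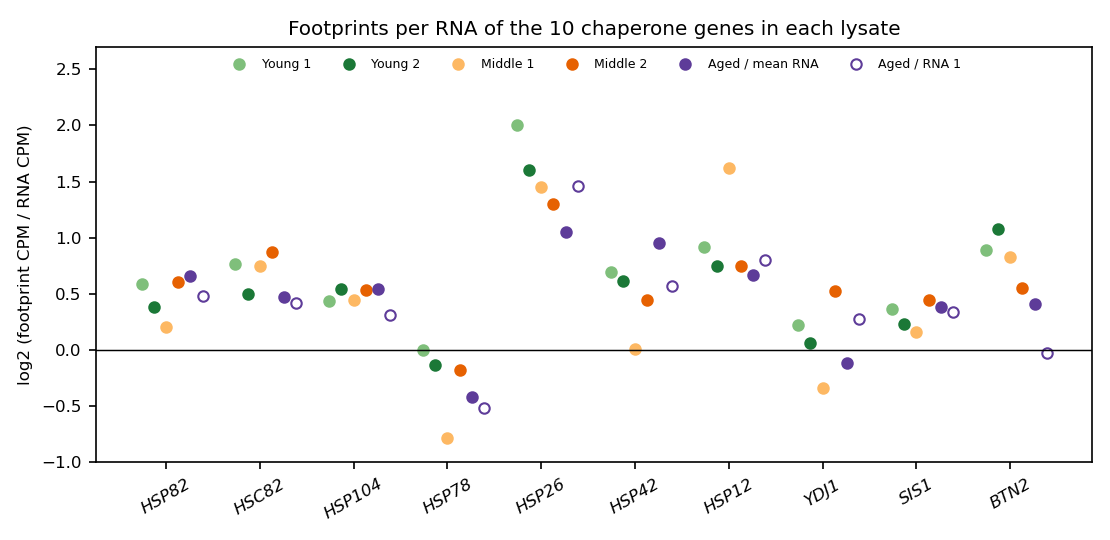
Log2 ratio of footprint CPM to RNA CPM (vertical axis, 0 marks equal CPM in both assays) of the 10 genes in each Young and Middle lysate and in Aged cells, where 1 footprint library is set over the mean of 2 RNA-Seq libraries (filled) or over RNA-Seq replicate 1 (open). HSP26 lies between 1.05 and 2.00, HSP78 lies at or below 0, and HSP104 lies between 0.43 and 0.54, or at 0.31 in Aged cells over replicate 1.

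The partners and regulators of these chaperones were described from lists of named genes. Of the 7 cytosolic Hsp70 and nucleotide-exchange genes, 1 fell in Aged against Young RNA (4.93% of all genes were called lower) and 2 fell in Aged against Middle RNA (3%), none rose, and the list medians were -1.14 and -1.35 (all genes -0.02 and 0.01). FES1, an exchange factor of cytosolic Hsp70, had 160 and 134 CPM in Aged cells, 1516 and 492 CPM in Middle cells and 481 and 275 CPM in Young cells, with log2 fold changes of -1.36 against Young (edgeR adjusted p = 0.028) and -2.77 against Middle cells (edgeR adjusted p = 0.011). SSA4, the heat-inducible Hsp70, had 255 and 284 CPM in Aged cells, 3719 and 1463 CPM in Middle cells and 920 and 369 CPM in Young cells, and fell by 3.26 on the log2 scale against Middle cells (edgeR adjusted p = 0.0042). Its Middle over Young value was 2.00 (edgeR adjusted p = 0.099).

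The co-chaperones of HSP90 gave no call at any age (10 of 12 tested), with list medians of -0.14 for Aged over Young, -0.04 for Aged over Middle and -0.04 for Middle over Young RNA. CPR7, a peptidyl-prolyl isomerase that docks on HSP90, had 11.4 and 24 CPM in Aged cells and 56.8 and 38.5 CPM in Young cells (log2 fold change -1.29, edgeR adjusted p = 0.10). Its value of 11.4 CPM rested on few counts, as 3 counts equalled 5.59 CPM in Aged replicate 1. SBA1, the yeast p23, had 633 and 583 CPM in Aged cells and 389 and 402 CPM in Young cells (0.62, edgeR adjusted p = 0.24). The 5 chaperones of the mitochondrial matrix other than HSP78 gave no call either, with 4 of them above 0 and a median of 0.51 for Aged over Young RNA, whereas HSP78 was at -1.33. Among them MGE1, the nucleotide-exchange factor of matrix Hsp70, was at 0.94 (edgeR adjusted p = 0.060). MDJ1 was below 0 like HSP78, at -0.70 (edgeR adjusted p = 0.17).

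Of 11 other Hsf1 targets, FES1 and APJ1, a J-domain protein (-1.64, edgeR adjusted p = 0.047), fell in Aged against Young RNA. FES1 also fell in Aged against Middle RNA, with list medians of -0.43 and -1.04 for the 2 comparisons. Of all genes, 4.93% and 3% were called lower in them. Of 16 other Msn2/Msn4 targets, 4 fell in Aged against Middle RNA (GRE1 at -3.63, SPI1 at -2.81, SSA4, and ALD3 at -1.49) and none rose, with a list median of -0.52 and 3% of all genes called lower. In Aged over Young RNA 8 of the 16 were above 0 and 8 below, with a median of 0.02. There was 1 call each way, where 8.02% of all genes were called higher and 4.93% lower. SOL4, a phosphogluconolactonase-like gene, rose in Aged over Young RNA, at 2.25 (edgeR adjusted p = 0.0024), with 256 and 226 CPM in Aged cells, 157 and 181 CPM in Middle cells and 44.3 and 55.4 CPM in Young cells. It also rose in Middle over Young RNA (1.76, edgeR adjusted p = 0.031). SPI1, a cell wall protein, fell in Aged over Young RNA, at -1.55 (edgeR adjusted p = 0.020). FES1, SSA1, SSA2, SSA3, SSA4, STI1, AHA1, HCH1, CPR6 and MDJ1 stand in 2 of these lists each, so the lists are not independent. The RNA of the regulators was not called at any age. HSF1, MSN2 and MSN4 had log2 fold changes of -0.41, -0.16 and -0.23 in Aged over Young RNA, and of -0.47, -0.66 and -0.25 in Aged over Middle RNA.

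Daughter-specific genes, which newborn cells express after division, were listed as markers of daughters. All 10 had counts in each RNA-Seq library. Their summed level was 1710 and 1645 CPM in Aged cells, 1304 and 741 CPM in Middle cells and 1188 and 543 CPM in Young cells. In Aged against Young RNA 3 of the 10 rose (DSE1, AMN1 and CTS1), where 8.02% of all genes were called higher. In Aged against Middle RNA 2 rose (AMN1 and DSE4), where 4.76% were. The log2 fold change was above 0 in 9 of the 10 for Aged over Young RNA, with ASH1 at -0.14. For Aged over Middle RNA it was above 0 in 8, with ASH1 at -0.61 and EGT2 at -0.03. In Aged over Young footprints ASH1 was at -1.15 and DSE4 at -0.13, and the other 8 were above 0. In footprints the sum was 1737 CPM in the Aged library, 882 and 613 CPM in Middle ones and 1089 and 491 CPM in Young ones, with up to 2 of the 10 at 0. The summed RNA level was thus highest in Aged cells, where BTN2, HSP26, HSP104 and HSP78 were lowest, and not in Young cells. Young cells are the fraction that held the daughters, and the study gives only a lower bound for the purity of Aged cells. Between replicates of Young and of Middle cells the sum ran the same way as 9 members, higher in replicate 1. Its part in these results was not tested.

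Genes with the pattern most like that of HSP82, HSP104 and HSP26 were sought by the Euclidean distance of log2 CPM, centred within each assay, over the 11 libraries and among 3165 genes. Nearest to HSP82 were SIS1 (distance 0.61), HSP104 (0.72) and SSA1, a major cytosolic Hsp70 (0.85), against a median distance of 3.15 over all genes. Nearest to HSP104 were HSP82 (0.72), YGR161W-C (0.79) and ROQ1, a regulator of a ubiquitin ligase (0.88), against a median of 3.46. HSP26 had other neighbours, namely VPS36, a subunit of an ESCRT complex (0.92), CTH1, an mRNA-binding zinc-finger protein (1.05), and JEM1, a J-domain protein of the endoplasmic reticulum (1.10), against a median of 3.86. JEM1 shared with HSP26 the low Aged values, with 19 and 29.7 CPM in Aged, 186 and 112 CPM in Middle and 191 and 124 CPM in Young RNA. The value of 19 CPM rested on few counts, as 3 counts equalled 5.59 CPM in that library. These distances rest on libraries whose replicates differ in depth and are descriptions only.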

How the data were processed

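RNA-Seq (6 libraries) and footprint (5 libraries) counts were used as deposited. The authors trimmed the reads, removed those on non-coding RNA, aligned the rest to the S288C genome (sacCer3; the submitters' processing notes name CASAVA 1.8 and STAR 2.7.0a) and counted reads per coding sequence without normalization, leaving out 5 codons at each end. RNA-Seq reads were placed with an offset of 15 nt, footprints with an A-site offset set by their length. A second deposited column gives the codons counted. The RNA-Seq kit keeps strand; how counting used strand and placed multi-mapping reads is not given in the sources used here. Of 6668 genes, 5989 matched the RefSeq R64 reference, from which names, coordinates and sequences were taken (Biopython 1.88).

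Tests used edgeR 4.0.16 on limma 3.58.1 under R 4.3.3: filterByExpr, TMM, glmQLFit and glmQLFTest, two-sided, Benjamini-Hochberg over all genes tested, threshold 0.05. The SE is the log2 fold change over the square root of F. RNA comparisons and Middle footprints used the 2 ages compared. Aged footprints were fitted with all 5 footprint libraries and Aged translational efficiency with all 11 libraries, with the lone Aged library taken to vary like the others. The study calls the 2 samples of Young and of Middle cells biological replicates. Its methods do not say so of the 2 Aged RNA-Seq samples. The p-values set each fold change against a spread estimated between the samples of an age and moderated across genes. For Aged footprints that spread came from the Young and Middle samples. No 2 libraries held identical counts. The scripts were tested on simulated counts.

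RNA and footprints of one number came from one lysate according to the study's methods, and their deviations from the age means across 4200 genes correlated at 0.565 (Young) and 0.38 (Middle). Alternatives were scaling by DESeq2's size factors, by library totals or by TMM on all but 137 ribosomal protein genes, a minimum of 10 counts in each library or no filter at all, the DESeq2 1.42.0 test, HSP82 and HSC82 summed, other sets of ages in the fit, blocks by replicate number or lysate, and leaving out each library.

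Named genes are the 10 members and, from each list, the gene with the lowest p on either side of Aged and Middle over Young RNA (those without a call are given only in part), the called genes where 5 or fewer were called, and HSF1, MSN2 and MSN4. Added were the 3 nearest genes of HSP82, HSP104 and HSP26 among genes with at least 20 mean counts in each assay. Members and lists were chosen with earlier results of these data known.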

Additional observations from a re-analysis of the deposited data

Results flagged for a closer look

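For 4 members the RNA effect of age against Young cells differed between Aged and Middle cells by the edgeR test of that difference, which is the Aged over Middle comparison (adjusted p under 0.05). The difference on the log2 scale was -3.79 for BTN2 (Aged over Young -2.84, Middle over Young 0.94). It was -2.12 for HSP104 (Aged over Young -1.37, Middle over Young 0.73). It was -2.02 for HSP26 (Aged over Young -1.79, Middle over Young 0.25) and -1.58 for HSP78 (Aged over Young -1.33, Middle over Young 0.24). None of these Middle over Young values passed the test, and all 4 were below 0 when Middle replicate 1 was left out. Without Middle replicate 1 the difference passed for BTN2 only, and without Aged replicate 2 for none.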

How the results depend on the processing

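With 2 libraries per age, single libraries decide most calls. The members called in Aged over Young RNA were 2, against 5 by DESeq2, 4 with a replicate block and 0 to 2 with a library left out. In Aged over Middle RNA they were 4, against 7 by DESeq2, 7 with the replicate block, 6 each with library totals, at least 10 counts or no filter, 5 with DESeq2's size factors, 3 in the joint fit and 0 to 5 with a library left out. In Aged over Young footprints they were 1, against 2 each with library totals, at least 10 counts, no filter or the 2 ages only, 3 with the replicate block and 0 to 3 with a library left out. In Middle over Young footprints they were 0, against 1 by DESeq2. The replicate block rests on numbers that are not known to link ages (r of deviations 0.323 for Young and Middle, 0.0562 for Young and Aged and 0.318 for Middle and Aged RNA, 0.134 for Young and Middle footprints) and raised the calls over all genes to 541, 1127 and 1418 in Middle over Young, Aged over Young and Aged over Middle RNA (173, 764 and 440 without it) and to 681 in Middle footprints (287 without it). It changed no other count of members. For Aged footprints and Aged translational efficiency the blocks were added after seeing the data, with the Aged footprint library as replicate 1. They gave 748 calls over all genes in footprints (410 without) and, for efficiency, 29 by number and 67 by lysate (0 without), with HSP42 turned to -0.10 and -0.06.

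Calls over all genes in Middle over Young RNA were 105 with at least 10 counts, 271 with no filter, 337 in a joint fit and 400 by DESeq2. In Middle footprints they were 650 with no filter, and library totals moved the higher share of calls to 54% (39.7% with TMM) and the median of all genes to 0.18. In Aged footprints they were 680 with no filter and 259 by DESeq2 (410 by the reported fit).

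With all libraries in the fit, the directions that turned were HSP42 in Aged translational efficiency (above) and values near 0, and with a library left out larger ones turned too. Library totals gave 0.01 for HSP12 in Aged over Middle RNA and 0.04 for HSP42 in Aged footprints, and YDJ1 in Middle footprints was at -0.0027 with TMM over genes other than ribosomal protein genes and at -0.06 with at least 10 counts. With a library left out, log2 fold changes in Middle over Young RNA ranged between -0.21 and 1.27 for HSP82, -1.10 and 0.01 for HSC82, -0.02 and 1.26 for HSP104, -0.31 and 0.99 for HSP78, -0.45 and 0.77 for HSP26, -0.26 and 0.64 for YDJ1, -0.04 and 1.62 for SIS1 and -0.34 and 2.05 for BTN2. In Aged over Young RNA they ranged between -0.99 and 0.10 for HSC82, -0.85 and 0.22 for HSP42 and -0.68 and 0.23 for YDJ1, and in Aged over Middle RNA between -0.20 and 0.46 for HSC82 and -0.20 and 0.03 for HSP12. In Middle footprints they ranged between -0.19 and 1.21 for HSP82, -1.08 and 0.31 for HSC82, -0.01 and 1.24 for HSP104, -0.83 and 0.57 for HSP78, -1.01 and 0.41 for HSP26, -0.42 and 0.66 for YDJ1 and -0.77 and 1.76 for BTN2, and in Aged footprints between -1.36 and 0.08 for HSC82, -0.60 and 0.57 for HSP42 and -1.09 and 0.04 for YDJ1. Translational efficiency ranged between -1.29 and 0.30 for HSP78 and -0.07 and 0.74 for HSP12 in Middle cells, and -0.29 and 1.00 for HSP42 in Aged cells. The cause was not tested.

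BTN2 and HSP26 kept their call in Aged over Young RNA under each setting that used all libraries of both ages (adjusted p from 7.9e-08 to 0.03 for BTN2 and from 2e-05 to 0.018 for HSP26). A lone library in a group was taken to vary like the others. Footprint libraries held as few as 168247 counts.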
